A study of Mus musculus with 10 samples.

Results

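Cholesterol and fatty acid synthesis in the jejunum was followed through 30 genes, taken as every row of the deposited table whose gene name was on a list of 30, out of 45707 rows in all. The list holds 16 enzymes of the mevalonate and sterol pathway, 5 regulators of the SREBP system, 2 sterol transport genes and 7 fatty acid synthesis genes. RNA was sequenced from the whole jejunum of 5 Vil-Cre mice, the Cre controls, and 5 Vil-Cre:NDI1 mice, with 1 library per mouse, to ask whether NDI1 changes the transcriptome. NDI1 is a yeast NADH dehydrogenase that does the electron transfer of complex I as a single protein. It sits behind a lox-stop-lox cassette at the ROSA26 locus, and the Villin promoter, which is active in intestinal epithelium, drives the Cre that both genotypes carry. All mice were male littermates aged 7 to 12 weeks on standard chow, fasted for 16 to 18 h and given water by gavage, and the tissue was taken 1 h later after flushing. The wall of the gut, with its muscle, immune and fat cells, was therefore part of each library.

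Cells make cholesterol from acetyl-CoA through mevalonate, squalene and lanosterol, and make fatty acids from malonyl-CoA. The SREBP transcription factors control both routes: SREBP2, from Srebf2, mainly drives sterol genes and the uptake of lipoproteins, and SREBP1, from Srebf1, mainly drives fatty acid genes. SCAP carries them to the Golgi for activation when sterols are low, and the INSIG proteins hold SCAP back when sterols are high. In the small intestine this system works beside dietary supply, since enterocytes take up luminal cholesterol through NPC1L1.

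The libraries held 10145705 to 12371530 reads on genes. NDI1 was at 982 to 2575 normalized counts in the Vil-Cre:NDI1 mice, while 4 of the 5 Vil-Cre mice had none and Vil-Cre 3 had 1 read. All 11 enterocyte markers were detected, Vil1 among them at 35066 to 49248 normalized counts. Vil-Cre 5 stood apart, with its median enterocyte marker 0.42 below the 10-mouse mean on the log2 scale. In a bulk tissue, fewer cells of a type and less RNA per cell cannot be told apart.

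The set of RefSeq promoter windows used here, on GRCm38.p6, covered 24 of the 30 genes. Those of Hmgcs1 and of the 3 matched genes that varied most closely with it over the mice are given for the 250 bases before the start. The 3 are Srebf2, Cyp51 and Idi1. Hmgcs1 makes HMG-CoA, Cyp51 removes a methyl group from lanosterol, and Idi1 interconverts the 2 isoprenoid units. The sequences are written 5′ to 3′ on the strand of the gene. Capitals mark, on either strand, TCACNCCAC (a sterol regulatory element core), CCAAT (bound by NF-Y) and GGGCGG (the GC box bound by Sp1).
Hmgcs1: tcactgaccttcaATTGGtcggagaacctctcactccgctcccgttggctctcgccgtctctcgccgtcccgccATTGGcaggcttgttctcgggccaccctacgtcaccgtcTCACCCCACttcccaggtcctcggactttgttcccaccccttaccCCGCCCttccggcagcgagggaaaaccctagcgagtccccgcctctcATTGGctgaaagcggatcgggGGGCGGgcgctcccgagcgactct
Srebf2: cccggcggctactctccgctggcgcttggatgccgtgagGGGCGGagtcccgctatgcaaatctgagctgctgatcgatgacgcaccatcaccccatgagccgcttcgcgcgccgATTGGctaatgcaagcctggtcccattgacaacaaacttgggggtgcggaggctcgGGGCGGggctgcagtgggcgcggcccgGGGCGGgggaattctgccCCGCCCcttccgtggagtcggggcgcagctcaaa
Cyp51: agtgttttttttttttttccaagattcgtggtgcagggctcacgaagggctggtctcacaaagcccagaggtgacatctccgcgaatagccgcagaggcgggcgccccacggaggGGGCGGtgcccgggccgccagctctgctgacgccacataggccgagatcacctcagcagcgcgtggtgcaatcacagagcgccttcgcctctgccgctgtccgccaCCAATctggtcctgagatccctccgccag
Idi1: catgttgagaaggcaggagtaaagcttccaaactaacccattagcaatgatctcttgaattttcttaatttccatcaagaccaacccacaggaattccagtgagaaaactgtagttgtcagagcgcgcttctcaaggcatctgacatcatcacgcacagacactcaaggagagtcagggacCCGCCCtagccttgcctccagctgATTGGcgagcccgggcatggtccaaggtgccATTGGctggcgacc

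The Hmgcs1 window, at chr13:119690101-119690350 on the plus strand, held 1 sterol element, 3 CCAAT boxes and 2 GC boxes. The Srebf2 window (chr15:82147019-82147268, plus strand) held 1 CCAAT box and 4 GC boxes. The Cyp51 window (chr5:4104698-4104947, minus strand) held 1 CCAAT box and 1 GC box, and the Idi1 window (chr13:8885356-8885605, plus strand) held 2 CCAAT boxes and 1 GC box. Over the windows before the starts of the 24 genes, 20 genes had a CCAAT box, against 37.5% of the 27025 genes with a window and 40.2% of those that passed the expression filter here. A GC box was found for 19 of 24, against 35.4% of all and 62.6% of the expressed genes. The sterol element in the exact letters searched was found for Hmgcs1 alone, against 1.23% of all genes. Matches of different motifs did not overlap in any of the 32 windows of these genes. A match is a description of these letters and not a bound site. Fdps, Fdft1, Sqle, Stard4, Scd1 and Scd2 had no window in the set used.

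The 30 genes were expressed over a wide range. All 30 passed the filter of 10 normalized counts in 5 mice. The normalized count per kilobase of exon was highest for Npc1l1, the cholesterol uptake transporter, at 3365. Stard4, which carries cholesterol between membranes, followed at 345 and Hmgcs1 at 266. Acaca, the cytosolic acetyl-CoA carboxylase, was lowest at 15.0 and Lss, which closes the sterol ring, was next at 22.9. These are levels per length over the 10 mice and not differences. Npc1l1 stood far above the rest of the list, and its normalized counts ran from 11906 in Vil-Cre 5 to 21173 in Vil-Cre:NDI1 5.

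**Figure D1:**
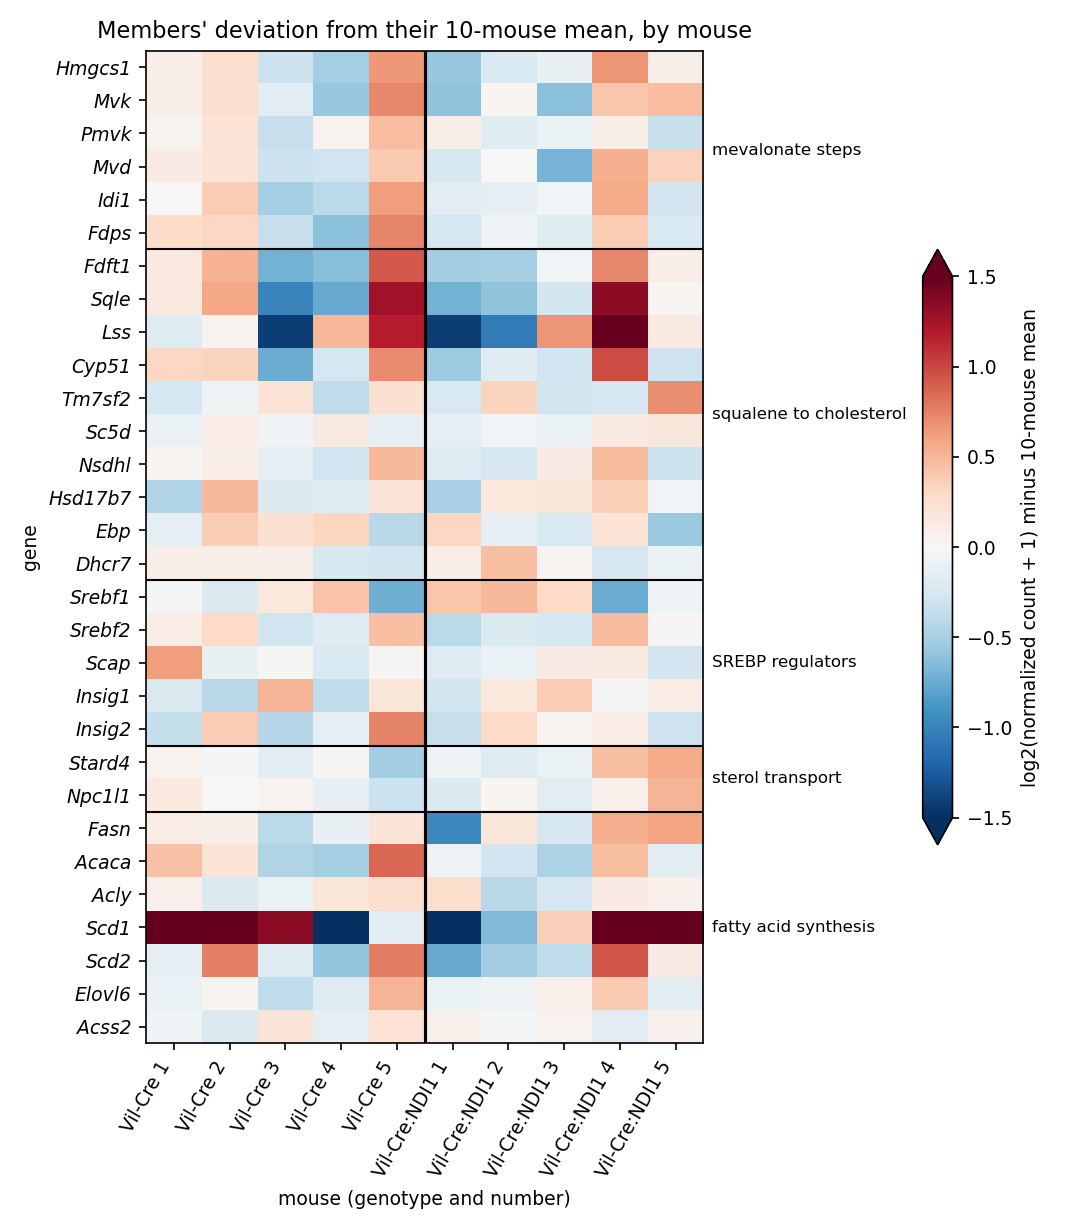
Each row is 1 of the 30 genes, grouped by role, and each column 1 mouse, with the genotypes parted by a vertical line. The colour gives log2(normalized count + 1) minus the mean of the 10 mice, and values beyond 1.5 in size take the end colours. Most sterol enzymes are red in Vil-Cre 5 and Vil-Cre:NDI1 4 and blue in Vil-Cre 3, Vil-Cre 4 and Vil-Cre:NDI1 1, with Srebf1 the other way round and Scd1 spread most.

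No gene of the list passed the test between the genotypes. In limma on log2(normalized count + 1), 0 of the 30 passed an adjusted p of 0.05, where 1 of 14301 genes tested did (0.00699%), which was NDI1 itself. At an unadjusted p of 0.05, 0 of the 30 passed against 4.24% of all genes tested. In 0 of the 30 did the 5 mice of one genotype lie wholly above the 5 of the other, against 0.699% of all genes. On the recovered reads, DESeq2 called 0 of the 30 and 31 of the 16976 genes with an adjusted p in all (0.183%), and edgeR 0 of the 30 and 1 of 14301 in all (0.00699%). With Vil-Cre 5 left out, limma called 0 of the 30. Of the 30 genes, 11 had a log2 fold change above 0 and 19 below it. Their median was −0.07 and that of all genes tested 0.01. The values ran from −0.23 for Scd2 to 0.25 for Stard4, and every adjusted p in limma was 0.998 or 0.999.

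The precision of these differences varied from gene to gene. For 26 of the 30, the 95% interval of the fold change stayed inside 2-fold up or down, as it did for 11383 of the 14301 genes tested. The exceptions were Sqle, Lss, Scd1 and Scd2. The narrowest was that of Sc5d, the sterol desaturase of a late step, with a log2 fold change of 0.01 and an interval from −0.19 to 0.21. The widest was that of Scd1, from −2.98 to 2.53.

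**Figure D2:**
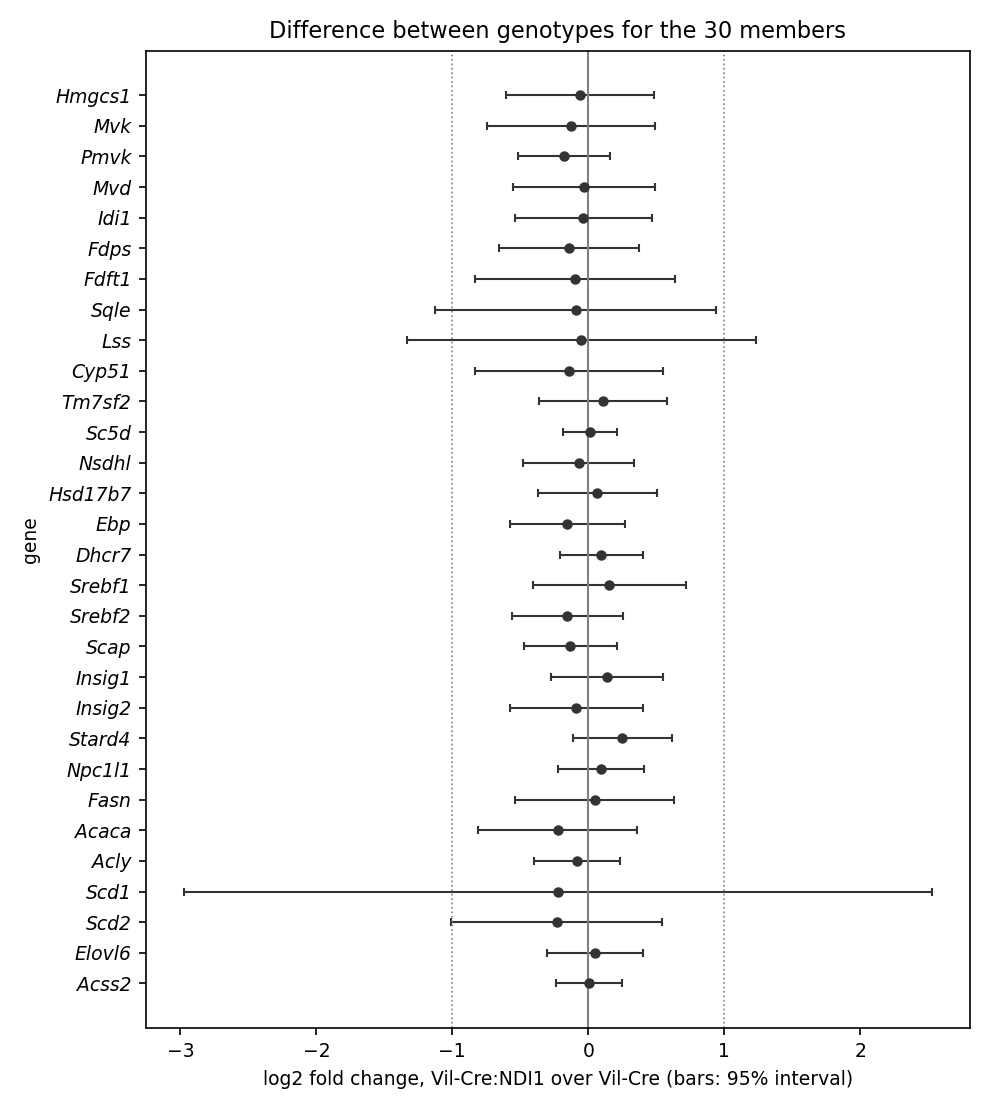
Each point is the log2 fold change of 1 gene in Vil-Cre:NDI1 mice over Vil-Cre mice from limma, with its 95% interval as a bar, for 5 mice per genotype. Dotted lines mark a 2-fold difference. Every interval includes 0, and those of Scd1, Lss, Sqle and Scd2 reach past 2-fold.

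Among the 16 enzymes of the mevalonate and sterol pathway, 4 had a log2 fold change above 0 and 12 below, with a median of −0.07. Pmvk, which adds the second phosphate to mevalonate, had the smallest p of them. In order of mouse number, its normalized counts were 184, 205, 139, 184 and 245 in Vil-Cre mice and 189, 156, 165, 188 and 141 in Vil-Cre:NDI1 mice. The ranges overlapped, and the log2 fold change was −0.17 ± 0.15 (SE; limma adjusted p = 0.998; two-sided exact permutation p = 0.333). Ebp moves a double bond in the sterol ring. It was at 435, 619, 561, 599 and 357 in Vil-Cre mice and 594, 438, 407, 552 and 325 in Vil-Cre:NDI1 mice. Low and high mice occurred in both genotypes, with a log2 fold change of −0.15 ± 0.19 (SE).

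Hmgcs1 was at 1256, 1394, 937, 826 and 1842 normalized counts in Vil-Cre mice and at 793, 1002, 1087, 1852 and 1250 in Vil-Cre:NDI1 mice. Each genotype had 1 mouse above 1800, Vil-Cre 5 and Vil-Cre:NDI1 4. The group means were 1251 ± 403 and 1197 ± 402 (SD, n = 5 each). Sqle, the squalene epoxidase, was at 338, 456, 153, 180 and 733 in Vil-Cre mice and at 186, 200, 251.8, 776 and 311 in Vil-Cre:NDI1 mice. The same 2 mice were highest, and Sqle ranged 5.06-fold over the 10 mice with a log2 fold change of −0.09 ± 0.47 (SE). Lss was at 174, 206, 74.1, 281 and 452 in Vil-Cre mice and at 73.5, 95.7, 316, 582 and 218 in Vil-Cre:NDI1 mice. It ranged 7.91-fold and was again highest in these 2 mice, and its log2 fold change was −0.05 ± 0.59 (SE).

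The other sterol enzymes had log2 fold changes from −0.14 to 0.11. Those below 0 were Mvk and Mvd, which act on mevalonate and its phosphates, Idi1, Fdps and Fdft1, which build farnesyl diphosphate and squalene, and Cyp51 and Nsdhl, which remove methyl groups from lanosterol. Tm7sf2, Sc5d, Hsd17b7 and Dhcr7, reductases and a desaturase of the later steps, were above 0. None of them passed the test, and the signs of Mvd and Sc5d turned under another tool or scaling, as did those of Lss, Fasn, Elovl6 and Acss2.

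Srebf2 was at 1141, 1297, 856, 920 and 1441 normalized counts in Vil-Cre mice and at 793, 916, 874, 1468 and 1061 in Vil-Cre:NDI1 mice. The highest mouse of each genotype was that of Hmgcs1, and the log2 fold change was −0.15 ± 0.19 (SE). Srebf1 was at 1009, 883, 1139, 1374 and 613 in Vil-Cre mice and at 1360, 1434, 1256, 610 and 981 in Vil-Cre:NDI1 mice. Here Vil-Cre 5 and Vil-Cre:NDI1 4 were the lowest, and the log2 fold change was 0.16 ± 0.26 (SE). The table gives 1 value for Srebf1, so its transcripts from different starts cannot be told apart.

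Scap, the SREBP escort, was at 719, 432, 473, 396 and 473 in Vil-Cre mice and at 407, 434, 506, 512 and 380 in Vil-Cre:NDI1 mice. Apart from Vil-Cre 1 the mice lay between 380 and 512, and the log2 fold change was −0.13 ± 0.16 (SE). Insig1, itself a sterol-responsive gene in textbook accounts, was at 357, 311, 591, 318 and 471 in Vil-Cre mice and at 345, 466, 542, 406 and 450 in Vil-Cre:NDI1 mice. Its highest mouse was Vil-Cre 3, which was low for the sterol enzymes, and its log2 fold change was 0.14 ± 0.19 (SE). Insig2, the other INSIG, was at 367 to 827 in Vil-Cre mice and at 388 to 599 in Vil-Cre:NDI1 mice.

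Stard4 had the smallest p of the 30. It was at 1963, 1845, 1694, 1911 and 1315 normalized counts in Vil-Cre mice and at 1784, 1654, 1755, 2569 and 2778 in Vil-Cre:NDI1 mice. Vil-Cre:NDI1 4 and 5 were above every Vil-Cre mouse and the other 3 lay within the Vil-Cre range. The log2 fold change was 0.25 ± 0.17 (SE; limma p = 0.158, adjusted p = 0.998; two-sided exact permutation p = 0.254, where the smallest possible is 0.00794). Npc1l1 was at 16468, 14929, 15378, 13669 and 11906 in Vil-Cre mice and at 12839, 15148, 13199, 15616 and 21173 in Vil-Cre:NDI1 mice. The ranges overlapped but for Vil-Cre:NDI1 5, the mouse whose enterocyte marker list was also highest, and the log2 fold change was 0.09 ± 0.15 (SE).

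Fatty acid synthesis genes split 3 above 0 and 4 below, with a median log2 fold change of −0.09. Acaca was at 331, 280, 177, 172 and 444 normalized counts in Vil-Cre mice and at 230, 200, 174, 333 and 216 in Vil-Cre:NDI1 mice. The genotypes overlapped, with a log2 fold change of −0.22 ± 0.27 (SE). Fasn, the fatty acid synthase, was at 554, 543, 388, 475 and 583 in Vil-Cre mice and at 261, 581, 434, 748 and 770 in Vil-Cre:NDI1 mice. The Vil-Cre:NDI1 mice held both the lowest and the highest values, with a log2 fold change of 0.05 ± 0.27 (SE). Acly, Acss2 and Elovl6, which supply acetyl-CoA and lengthen palmitate, had log2 fold changes of −0.09, 0.01 and 0.05.

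Scd1 and Scd2 are stearoyl-CoA desaturases, which make oleate-type fatty acids. Scd1 was at 1786, 1838, 1474, 38.4 and 518 in Vil-Cre mice and at 37.2, 368, 745, 2323 and 1870 in Vil-Cre:NDI1 mice. It ranged 62.4-fold, more than any other gene of the list, and Vil-Cre 4 and Vil-Cre:NDI1 1 stood near 38. The log2 fold change was −0.22 ± 1.26 (SE). Scd2 was at 148, 278, 143, 108 and 281 in Vil-Cre mice and at 97.0, 114, 126, 317 and 180 in Vil-Cre:NDI1 mice. It was highest in Vil-Cre:NDI1 4, Vil-Cre 5 and Vil-Cre 2, and its log2 fold change was −0.23 ± 0.35 (SE). Both genes were highest in Vil-Cre:NDI1 4 and lowest in Vil-Cre:NDI1 1 and Vil-Cre 4. Vil-Cre 5 was among the highest for Scd2 but not for Scd1. The pair are close paralogs, so reads could have been split between them.

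Adipoq, which encodes the fat cell hormone adiponectin, was at 113, 164, 72.1, 1.01 and 7.77 normalized counts in Vil-Cre mice and at 0, 48.3, 66.8, 63.7 and 56.3 in Vil-Cre:NDI1 mice. Vil-Cre 4 and Vil-Cre:NDI1 1, the 2 mice at or near 0, were those with Scd1 near 38, while Vil-Cre 5 had little Adipoq and 518 of Scd1. The 8 tested genes of the 9 adipocyte markers had a median deviation from −1.65 in Vil-Cre 4 to 1.08 in Vil-Cre 2. The 3 mice with little Adipoq form a group of their own, so r was taken over the other 7. There Scd1 and Adipoq gave Pearson r = 0.48 (permutation p = 0.254, adjusted over 10 relations 0.423) and rho = 0.14 (permutation p = 0.783, adjusted 0.972), and r was −0.16 without the 2 mice farthest in Scd1. The 7 leave out the 2 mice lowest in both genes, so these values do not describe the relation over all 10 mice. The part of fat tissue in the Scd1 values was not tested.

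**Figure D3:**
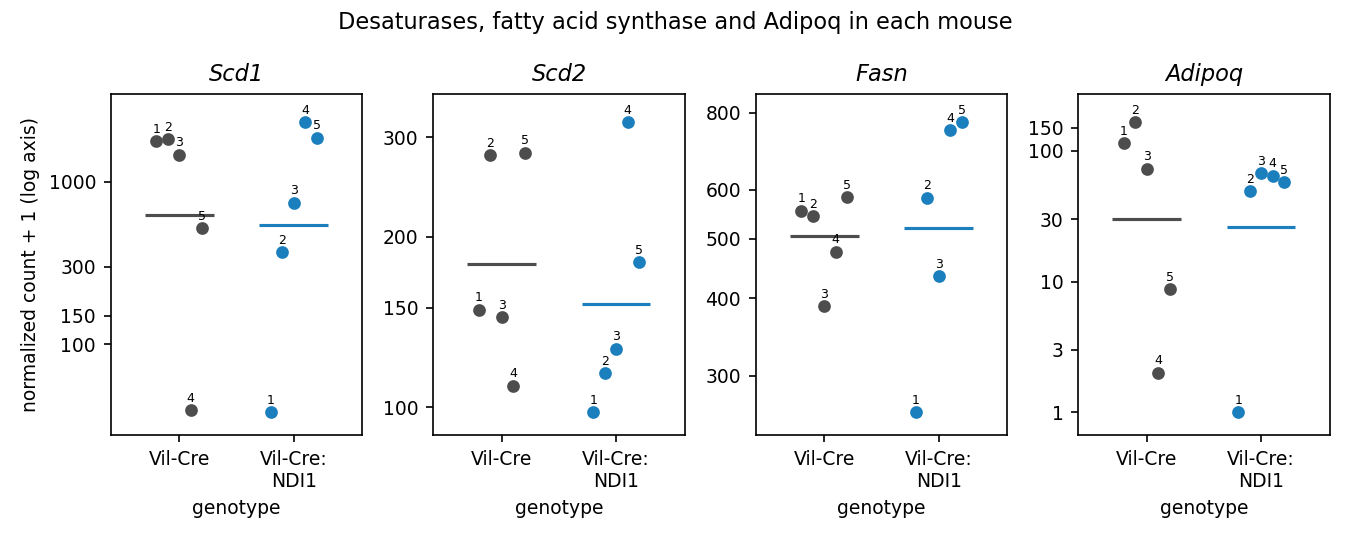
Normalized count + 1 on log axes for Scd1, Scd2, Fasn and the fat cell gene Adipoq, 1 point a mouse with its number, and the mean of the log values as a line. Vil-Cre 4 and Vil-Cre:NDI1 1 lie at the bottom for Scd1 and Adipoq, and the genotypes overlap in all 4 panels.

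Genes of the list varied between mice of the same genotype, and for the sterol enzymes much of that spread was shared. The SD of log2 values within genotypes was at least 0.5 for 7 of the 30 genes, namely Scd1, Lss, Sqle, Scd2, Fdft1, Cyp51 and Mvk, beside 24.3% of all genes tested. The median SD was 0.39 for the list and 0.29 for all genes. For the 16 sterol enzymes the median deviation from the 10-mouse mean was 0.55 in Vil-Cre 5, 0.45 in Vil-Cre:NDI1 4 and 0.24 in Vil-Cre 2. It was lowest, at −0.33, −0.30 and −0.26, in Vil-Cre 3, Vil-Cre 4 and Vil-Cre:NDI1 1. The range held both genotypes at each end. Over the 120 pairs of the 16 enzymes the median r between mice was 0.46, from −0.76 to 0.98, and 19.2% of pairs reached 0.8, where 0.596% of all pairs of tested genes did.

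Hmgcs1 was taken as the reference for the shared pattern, a choice made after its values were seen. Of the other 29 genes, 11 reached r = 0.8 with it over the 10 mice, against 1.75% of all other genes tested. They were Sqle (0.97), Fdft1 (0.96), Srebf2 (0.95), Scd2 (0.93), Cyp51 (0.90), Fdps (0.89), Idi1 (0.88), Mvk (0.86), Nsdhl (0.84), Elovl6 (0.82) and Acaca (0.82). For the first 6 the permutation p adjusted over all 14300 other genes was 0.0179 to 0.0401, against 0.28% of genes with such a positive relation. By Spearman's rho none of these 11 passed after adjustment: for Sqle rho was 0.95 and the adjusted permutation p 0.0755. Without the 2 mice farthest in Hmgcs1, Vil-Cre 5 and Vil-Cre:NDI1 4, r was 0.91 for Sqle, 0.92 for Fdft1, 0.88 for Srebf2, 0.86 for Scd2, 0.72 for Cyp51 and 0.80 for Fdps. It was lower for the other 5, at 0.67 for Idi1, 0.77 for Mvk, 0.51 for Nsdhl, 0.43 for Elovl6 and 0.60 for Acaca, so 4 of the 11 were still at 0.8 or above. With the genotype means removed, r was 0.97 for Sqle and 0.96 for Srebf2.

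Srebf1 went the opposite way. Its r with Hmgcs1 was −0.95 (permutation p adjusted over all 14300 genes 0.0245) and rho was −0.88 (adjusted permutation p 0.0985). A negative relation at that threshold was found for 1.3% of genes. Without the 2 farthest mice r was −0.86. In normalized counts the ratio of Srebf2 to Srebf1 was 2.35 in Vil-Cre 5 and 2.41 in Vil-Cre:NDI1 4, 1.47 in Vil-Cre 2, 1.13 in Vil-Cre 1 and 1.08 in Vil-Cre:NDI1 5. In the other 5 mice it was 0.58 to 0.75. The ranges of the ratio overlapped, at 0.67 to 2.35 in Vil-Cre mice and 0.58 to 2.41 in Vil-Cre:NDI1 mice. Lipa, the lysosomal acid lipase that frees cholesterol from its esters, was chosen after its values were seen and also ran against Hmgcs1, with r = −0.96 (adjusted permutation p 0.0235).

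**Figure D4:**
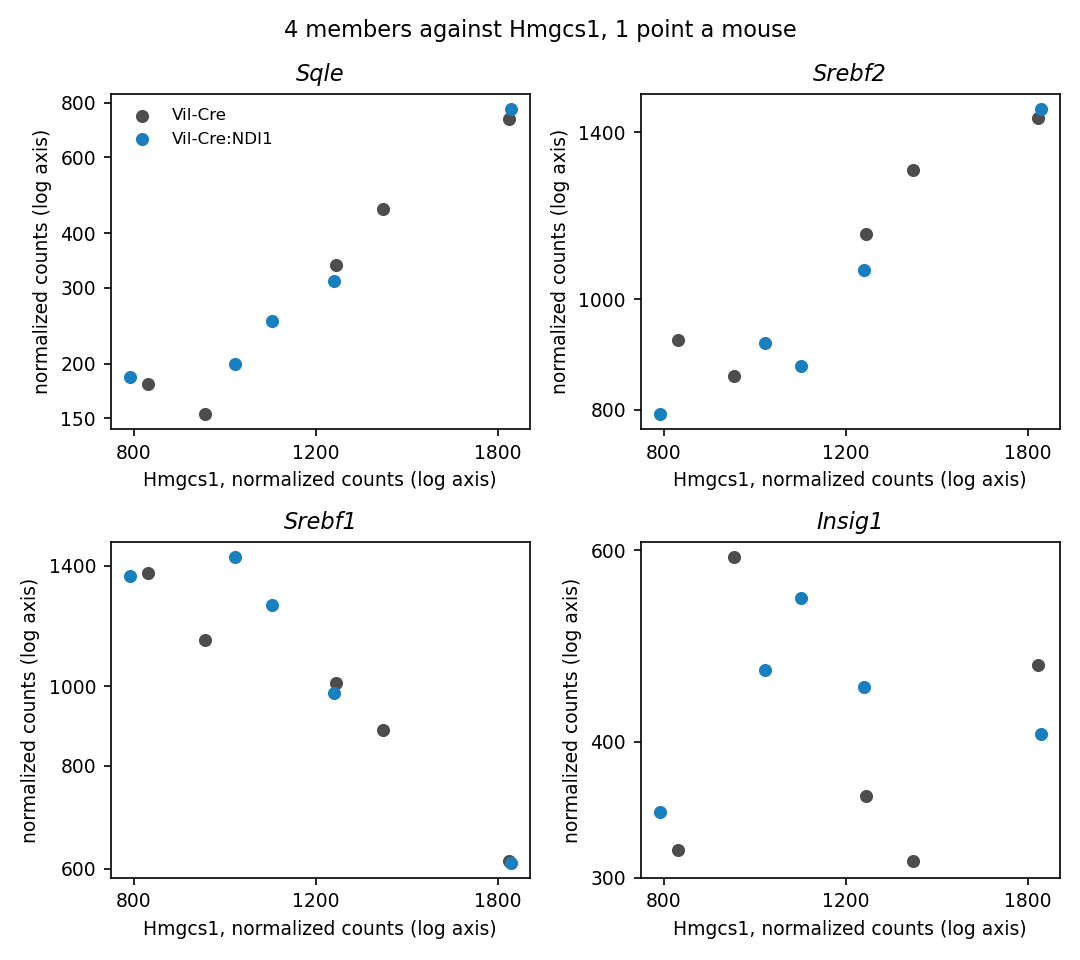
Normalized counts of Sqle, Srebf2, Srebf1 and Insig1 against those of Hmgcs1, both on log axes, 1 point a mouse and coloured by genotype. Sqle and Srebf2 rise with Hmgcs1 (r = 0.97 and 0.95), Srebf1 falls (r = −0.95), Insig1 shows neither (r = 0.07), and Vil-Cre 5 and Vil-Cre:NDI1 4 almost coincide in the first 3 panels.

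For other members the relation was weaker. The r with Hmgcs1 was 0.07 for Insig1 (permutation p adjusted over 10 relations 0.853), 0.09 for Npc1l1, 0.12 for Stard4, 0.13 for Acly, −0.09 for Acss2, −0.36 for Ebp and −0.46 for Dhcr7. Fasn gave r = 0.72 with Hmgcs1 (permutation p adjusted over 10 relations 0.0582) and r = −0.58 with Srebf1 (adjusted 0.157).

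Some cell markers were high or low in the same mice. Of 89 tested marker genes, 0 reached r = 0.8 with Hmgcs1, and 2 had an adjusted permutation p under 0.05, both negative. Apoa4, an apolipoprotein of enterocytes, had r = −0.90 (permutation p adjusted over all 14300 genes 0.0411) and rho = −0.89 (adjusted permutation p 0.0879), and r was −0.78 without the 2 farthest mice. Gip, a hormone of enteroendocrine cells, had r = −0.89 (adjusted permutation p 0.0477), rho = −0.85 (adjusted permutation p 0.115) and r = −0.84 without those mice. The enterocyte genes Rbp2 and Mttp were at r = −0.87 and −0.81, while Vil1 was at −0.11 and Fabp2 at 0.65. Without the 2 farthest mice, some markers did pass 0.8. The r was then 0.91 for Retn (0 to 19.6 normalized counts), 0.85 for Adipoq, 0.85 for Cfd and 0.82 for Fabp4, all of fat cells. It was 0.84 for the hepatocyte marker Cyp2e1. It was 0.85 for Cnn1 and 0.82 for Tagln of smooth muscle, and 0.89 for the neuron gene Uchl1. Other markers were lower, with Plin1, Cidec, Pnpla2 and Lipe of fat cells at 0.78, 0.41, 0.39 and 0.15. Myh11 of smooth muscle was at 0.65 and the crypt marker Mki67 at −0.54. The part of fat and muscle cells in this was not tested.

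The median deviation of 8 crypt markers was highest in Vil-Cre:NDI1 4 and Vil-Cre 5, at 0.56 and 0.40, and lay between −0.38 and 0.14 in the other 8 mice. The r of single crypt markers with Hmgcs1 ran from −0.21 for Olfm4 to 0.68 for Top2a, and the stem cell gene Lgr5 was at 0.10. For 5 Paneth cell markers r ran from 0.52 to 0.67. Their summed normalized counts were 98017 to 127068 in Vil-Cre:NDI1 4 and Vil-Cre 1, 2 and 5, and 34577 to 83002 in the other 6. For 6 goblet markers r ran from −0.21 to 0.77. The hepatocyte gene Alb was at 0.98 normalized counts in Vil-Cre:NDI1 1 and 763 in Vil-Cre 1. Its r with Hmgcs1 was 0.56 (permutation p adjusted over all 14300 genes 0.388). All 5 tested hepatocyte markers had a log2 fold change below 0 between genotypes, with a median of −1.03. Of these, 2 had an unadjusted limma p under 0.05, beside 4.24% of all genes tested, and 0 passed after adjustment. The part of these cells in the shared spread of the sterol enzymes was not tested.

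Related genes outside the list were tested in 3 further groups. Of 14 other sterol genes, 12 were found by name among the deposited rows and tested. Of those 12, 0 passed, with 5 above 0 and 7 below and a median log2 fold change of −0.01. Gramd1b, which moves cholesterol from the plasma membrane to the endoplasmic reticulum, was at 0.24 and Acat2, which joins acetyl-CoA units, at −0.21. Of 15 sterol export and LXR genes, 0 passed, with 11 above 0 and 4 below and a median of 0.11. Lpcat3, a phospholipid acyltransferase, was at 0.18, Soat2, which esterifies cholesterol, at 0.15 and Mylip, a ligase for lipoprotein receptors, at 0.27.

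Of 20 tested genes among 22 other fatty acid genes, 0 passed after adjustment and 4 had an unadjusted p under 0.05, beside 4.24% of all genes tested. Acsl5, an acyl-CoA synthetase of enterocytes, was at 17024, 18474, 17515, 16130 and 14594 normalized counts in Vil-Cre mice and at 18685, 19681, 18702, 20945 and 25531 in Vil-Cre:NDI1 mice. These 2 ranges did not overlap, as for 0.699% of all genes tested. The log2 fold change was 0.30 ± 0.11 (SE; limma p = 0.0211, adjusted p = 0.998; two-sided exact permutation p = 0.00794, the smallest possible). Its limma p was the smallest of this group. Of the 11 enterocyte markers, 10 were also above 0 and 1 below, with a median log2 fold change of 0.22, and 0 passed after adjustment. Acsl3, a relative of Acsl5, was at 0.44 and the citrate carrier Slc25a1 at 0.20. Me1, which makes NADPH for fatty acid synthesis, was at −0.73 and was lowest in Vil-Cre:NDI1 1 and Vil-Cre 4, at 235 and 341, the mice with least Scd1.

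Some values share sequence with neighbours. Exons of 12 of the 30 genes overlap exons of another gene in the GENCODE annotation, and for 6 of them the neighbour is annotated as protein coding. The overlap was 26.7% of the exon length for Fdps, with a predicted gene on the same strand, 18.3% for Fdft1, with Ctsb on the opposite strand, and 12.1% for Tm7sf2, with Vps51. Whether reads were assigned by strand is not given in the sources used here.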

How the data were processed

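The 10 libraries were made by the authors from total RNA of mouse jejunum, 1 per mouse. They trimmed the reads, aligned them by STAR to a GRCm38 genome extended by NDI1, used Salmon for gene assignment and scaled each library by 1 DESeq2 size factor (0.852 to 1.10). What they deposited is thus a signal: normalized counts per gene. Dividing by the smallest non-zero value of a library gave whole reads for 100% of its values (tolerance 0.001 reads), although in Vil-Cre 3 and Vil-Cre 4 that value (1.00 and 1.01) is too near 1 to tell reads from rounding, which also limits DESeq2 and edgeR here.

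Genotypes were compared with limma 3.58.1 (R 4.3.3), fitted to log2(value + 1) of the 14301 genes that reached 10 in 5 or more mice. P-values were Benjamini-Hochberg adjusted and called at 0.05. A fold change on this scale understates that of low genes. Exact permutation tests enumerated every division of the mice into 5 and 5, and correlations used 100000 permutations of log2 values. The tests were checked on simulated data. The recovered reads were also tested by DESeq2 1.42.0 and by edgeR 4.0.16. The members, gene lists and tests were chosen with earlier results of these data known. The rule for named genes took, with the value of every mouse, the 6 members with the smallest p, the 3 highest per length, the 3 with the largest spread and 9 fixed by role. It also took NDI1, Adipoq and the 3 smallest p of each related list, most of which are given by range or fold change alone. Others were chosen after their values were seen. For 1 related list, 1 of these genes is left unreported. Promoter sequences are from RefSeq, GRCm38.p6. Replicate numbers did not pair the mice (r of deviations −0.12 to 0.14).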

Additional observations from a re-analysis of the deposited data

Results flagged for a closer look

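In 61 groups of 5 mice, 1 for each gene and genotype checked, the highest or lowest mouse was compared with the nearest other mouse as a share of the group's range, and chance alone flags about 1 in 20 groups, here 3.05. 5 groups had a mouse farther off than the critical share of 0.71. Vil-Cre:NDI1 4 was above the other Vil-Cre:NDI1 mice for Idi1 (663 normalized counts against 369 to 440), Fdps (511 against 324 to 374), Sqle (776 against 186 to 311) and Cyp51 (892 against 314 to 399). These 4 are sterol enzymes that vary together over the mice, so the 4 are not independent. Vil-Cre 1 was above the other Vil-Cre mice for Scap, at 719 normalized counts against 396 to 473.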

How the results depend on the processing

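No alternative called any of the 30 genes, and the lowest adjusted p of a member in any of 18 alternatives was 0.867. The count of genes called was 1 in limma, 2 with a minimum of 50, 31 with DESeq2 (16 higher, 15 lower) and 1 with edgeR, and 1 to 3 when each mouse was left out, the higher counts without Vil-Cre:NDI1 1 (2) and Vil-Cre:NDI1 5 (3). With a replicate block it was 1, the numbers did not pair the mice, and no other call changed. Rescaling every library to the same total turned Sc5d to −0.053, Fasn to −0.016, Elovl6 to −0.010 and Acss2 to −0.055. DESeq2 turned Mvd to 0.0048, Lss to 0.11 and Acss2 to −0.0026, and edgeR turned Lss to 0.10 and Acss2 to −0.014. The cause was not tested. Leaving out each mouse turned the sign in 23 members, whose log2 fold changes then ranged as follows: Hmgcs1 −0.24 to 0.090, Mvk −0.28 to 0.039, Mvd −0.17 to 0.14, Idi1 −0.18 to 0.11, Fdps −0.31 to 0.022, Fdft1 −0.29 to 0.12, Sqle −0.44 to 0.21, Lss −0.44 to 0.30, Cyp51 −0.40 to 0.021, Tm7sf2 −0.051 to 0.19, Sc5d −0.032 to 0.049, Nsdhl −0.20 to 0.041, Hsd17b7 −0.038 to 0.20, Dhcr7 −0.0055 to 0.17, Srebf1 −0.0096 to 0.36, Scap −0.21 to 0.0075, Insig2 −0.21 to 0.088, Npc1l1 −0.023 to 0.16, Fasn −0.095 to 0.29, Acly −0.16 to 0.0095, Scd1 −1.22 to 0.73, Elovl6 −0.038 to 0.19, Acss2 −0.047 to 0.061. The other 7 members kept their sign throughout. Of 540 values of members under alternatives, 473 kept their sign, 9 turned outside and 58 within the runs that left out 1 mouse. The median log2 fold change of the 30 ran from −0.18 to 0.04 when each mouse was left out. The intervals of Sqle, Lss, Scd1 and Scd2 reach past 2-fold, and all intervals cover the spread between these mice only. Reads on a member ranged from 38 to 18038 per library.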
